A study of Mus musculus with 12 samples.

Results

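Of the genes that mark neutrophils, 9 were followed in mouse liver after an alkylating agent: the calgranulins S100a8 and S100a9, and Ngp, Camp, Ltf, Mpo, Csf3r, Mmp8 and Mmp9. They were taken by symbol from the array annotation, as the 10 probe sets that carry 1 of these 9 symbols alone, out of 22626 probe sets and 12393 genes. Mmp9 has 2 probe sets and each other gene has 1, and no probe set that names several genes includes any of them. Expression was measured on Affymetrix arrays, 1 per animal, in liver of 12 C57Bl/6J mice aged 6 to 8 weeks. Of these, 3 wild-type and 3 Aag knock-out mice had been given methyl methanesulfonate (MMS), which methylates DNA, as 1 intraperitoneal injection of 75 mg/kg, and their livers were taken 6 hours later. The other 3 wild-type and 3 knock-out mice are labelled controls and are called untreated here; whether they received an injection is not given in the sources used here. Aag, also named Mpg, encodes a DNA glycosylase that cuts out alkylated bases, and the knock-out mice lacked it in both treatment groups. The labels name neither the allele nor the cells in which it is deleted.

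Neutrophils are short-lived white blood cells that kill microbes with the contents of preformed granules and with oxidants. S100A8 and S100A9 are small calcium-binding proteins that pair to form calprotectin, fill the neutrophil cytosol, and act on Toll-like receptor 4 when released. Most granule proteins are made while the cell matures in the bone marrow, and in liver neutrophils arrive with the blood and move into tissue when chemokines and adhesion molecules are induced. In RNA from whole liver, a change in the number of cells of a type and a change in RNA per cell cannot be told apart.

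The values are log2 expression per probe set. They carry no detection call, and the array medians were 7.42 to 7.75. Levels of different probe sets cannot be compared as amounts of RNA, since each binds its target differently. A percentile of level below describes signal only. Each change below is a difference in log2 value, given ± its standard error in a limma fit to all 12 arrays, and a gene is said to have risen or fallen only at an adjusted p under 0.05 over the 22626 probe sets. Each group holds 3 arrays, which limits the precision of every value. The targeted gene was lower in every knock-out than in every wild-type array at 1 of its 2 probe sets (4.95 to 5.75 against 6.21 to 6.94).

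The calgranulins and 1 granule gene are shown first by the DNA around their starts, because S100a8 and S100a9 rose with MMS in wild-type liver and Ngp was not called. S100a8 lies at chr3:90669071-90670034 and S100a9 at chr3:90692630-90695721 (GRCm38.p6), with 22.6 kb between them. Camp, Ngp and Ltf lie on chromosome 9, with 570.4 kb between Camp and Ngp and 596.3 kb between Ngp and Ltf, and Mmp8 lies elsewhere on chromosome 9 (start 7558429). The sequences below are RefSeq's for GRCm38.p6, each 300 bases from 250 before to 50 after the annotated gene start, 5′ to 3′ on the gene's strand. They cover chr3:90668821-90669120 on the plus strand for S100a8, chr3:90695672-90695971 on the minus strand for S100a9 and chr9:110419558-110419857 on the plus strand for Ngp. Capitals mark every match on either strand to TATAAA, the core promoter element near which transcription starts, or to TTNNGNAA, the core letters of sites for C/EBP factors, which act in myeloid cells and in hepatocytes.
S100a8: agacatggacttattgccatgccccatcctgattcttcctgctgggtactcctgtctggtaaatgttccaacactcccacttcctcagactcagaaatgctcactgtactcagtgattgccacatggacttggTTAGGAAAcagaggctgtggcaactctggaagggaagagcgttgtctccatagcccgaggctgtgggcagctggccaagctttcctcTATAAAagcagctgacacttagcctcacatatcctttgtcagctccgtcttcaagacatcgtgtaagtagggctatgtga
S100a9: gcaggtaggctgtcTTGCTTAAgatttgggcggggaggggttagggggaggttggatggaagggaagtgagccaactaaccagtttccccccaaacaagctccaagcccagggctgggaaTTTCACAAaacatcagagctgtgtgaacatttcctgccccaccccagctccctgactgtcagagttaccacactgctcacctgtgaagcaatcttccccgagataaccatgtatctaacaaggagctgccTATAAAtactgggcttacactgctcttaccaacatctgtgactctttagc
Ngp: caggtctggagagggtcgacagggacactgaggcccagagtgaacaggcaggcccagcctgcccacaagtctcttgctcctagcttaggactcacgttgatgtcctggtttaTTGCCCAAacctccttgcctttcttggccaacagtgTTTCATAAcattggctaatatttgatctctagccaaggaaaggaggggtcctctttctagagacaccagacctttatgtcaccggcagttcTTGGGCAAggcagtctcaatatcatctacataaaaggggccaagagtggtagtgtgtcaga

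In S100a8 the TATAAA element lies at -30 to -25 from the annotated start and the C/EBP letters at -117 to -110. In S100a9 the same TATA letters begin at position 1, and C/EBP letters lie at -236 to -229 and at -130 to -123. Ngp has no TATAAA and 3 C/EBP matches. Of the 9 genes 8 had a sequence in the RefSeq table, and Mmp9 had none there. Among the 32851 windows of that table, which holds several starts for some genes, TATAAA occurs in 13.6% and TTNNGNAA in 40.7%. GAGGAAGT, a site of the myeloid factor PU.1, occurs in 3.2% of windows and was found in those of S100a8, Mpo and Mmp8. TTCNNNGAA, the core of STAT sites, occurs in 8.3% and was found in none of the 8 windows, and the outer letters of NF-kB sites, GGG and CC with 5 letters of any kind between them, occur in 50.8% and were found in those of Camp, Ltf, Mpo and Csf3r. Some of the NF-kB matches in a window overlap each other. Ltf holds 2 C/EBP matches, and Mmp8 holds 2 of them and a TATAAA on the opposite strand. A match says only that these letters are present.

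Treated and untreated wild-type livers were compared to ask what MMS changes where Aag is intact. There, 2 of the 9 genes rose, both calgranulins, none fell and 7 were not called. S100a8 stood at 8.18, 7.97 and 8.02 in the 3 untreated wild-type arrays and at 10.35, 11.20 and 9.63 in the treated ones. The groups did not overlap, and the lowest treated value exceeded the highest untreated value by 1.44. The change was 2.33 ± 0.44 (5.03-fold, 95% interval 1.37 to 3.29, limma adjusted p = 0.0145). S100a9 stood at 7.62, 7.42 and 7.51 in the untreated arrays and at 9.86, 11.21 and 9.33 after MMS. All treated values again lay above all untreated ones, by 1.71 or more. S100a9 rose by 2.62 ± 0.57 (6.14-fold, 95% interval 1.37 to 3.87, limma adjusted p = 0.0242). Over all probe sets 6.44% were called in this comparison, 1.99% as higher. The median change of the 9 genes was 0.0075, and that of all probe sets was -0.05.

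**Figure D1:**
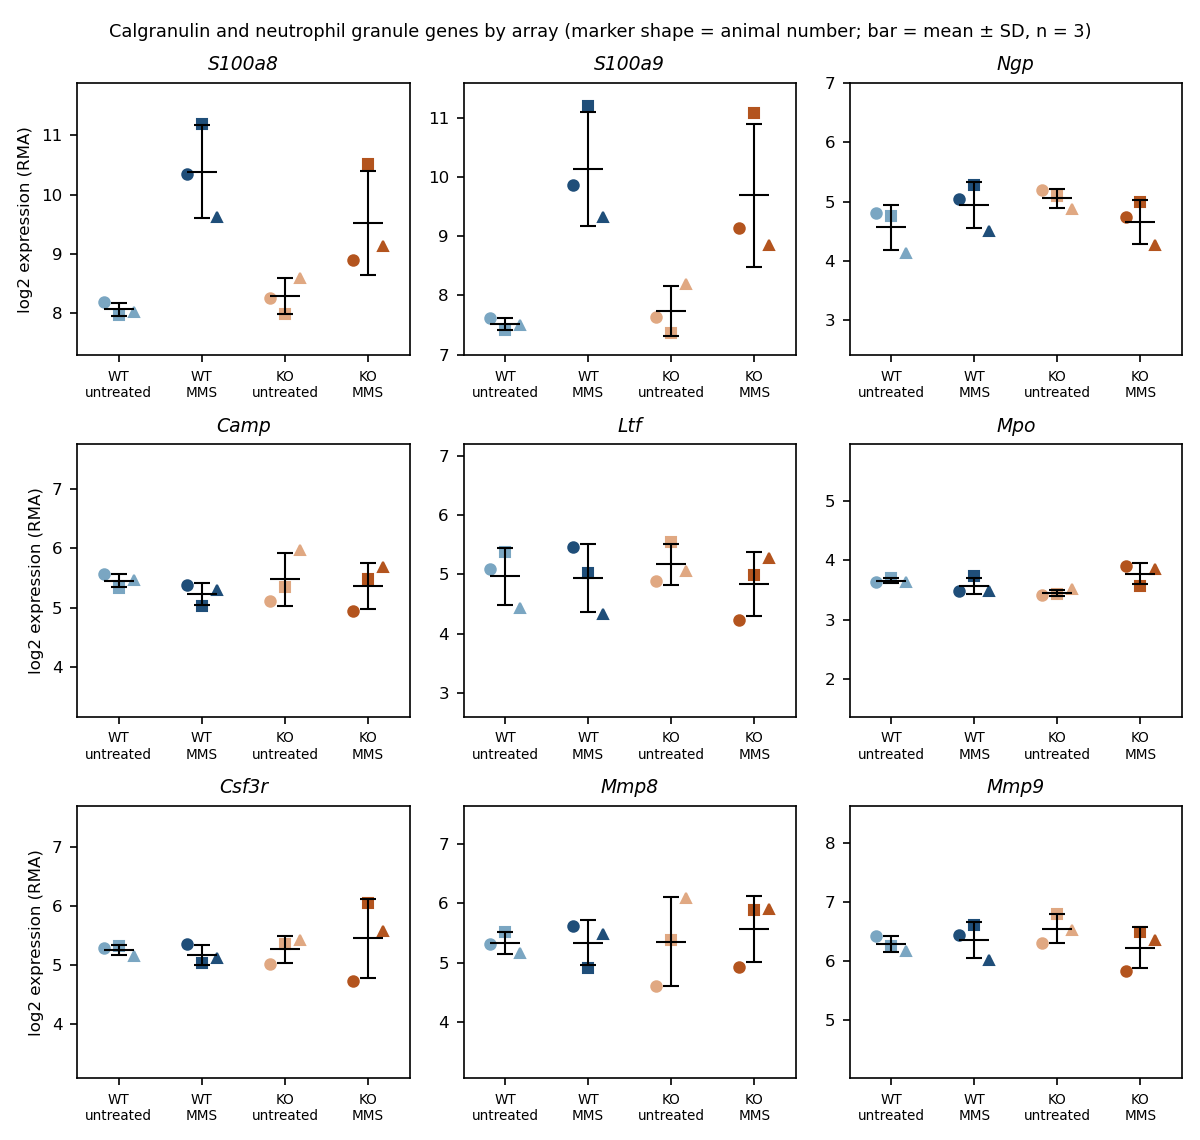
Log2 expression (RMA) of each of the 9 genes in the 12 arrays, in panels that all span the same number of log2 units. Points are animals, with the shape giving the animal number, and bars give mean ± SD (n = 3). S100a8 and S100a9 lie above the untreated arrays in all treated arrays of their genotype, whereas Ngp, Camp, Ltf, Csf3r, Mmp8 and Mmp9 overlap between treated and untreated arrays.

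The rise varied between animals. Over the untreated mean, the 3 treated wild-type animals stood 4.88-fold, 8.80-fold and 2.96-fold higher for S100a8 and 5.09-fold, 12.9-fold and 3.52-fold higher for S100a9. Animal 2 was the highest for both genes and animal 3 the lowest. Untreated wild-type arrays spanned 0.21 for S100a8 and 0.20 for S100a9, against 1.57 and 1.88 in treated ones. Over all other settings, including each array left out, the change ran from 1.81 to 2.71 for S100a8 and from 2.07 to 3.02 for S100a9. The calls depended on several single arrays. S100a8 lost its call without untreated wild-type array 1 (adjusted p = 0.0583) or array 3 (0.0567). S100a9 lost its call without untreated wild-type array 1 (0.0865), 2 (0.0614) or 3 (0.0828) and without treated wild-type array 1 (0.0531) or 2 (0.0739). The number of all probe sets called in these refits was between 274 and 877, against 1458 with all arrays. In the refits where a gene lost its own call, its change stayed at 2.31 or more for S100a8 and 2.08 or more for S100a9.

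The same question was put to liver without the glycosylase, the Aag knock-out, and there none of the 9 genes was called by limma (1.51% of all probe sets were, 0.747% as higher). At an unadjusted p under 0.05 there were 3, S100a8, S100a9 and Mpo, against 5610 of all 22626 probe sets. S100a8 stood at 8.25, 7.99 and 8.60 in untreated and at 8.89, 10.52 and 9.14 in treated knock-out arrays. The groups did not overlap, though the gap was only 0.29, and treated animal 2 stood apart above the other two. The difference was 1.24 ± 0.44 (2.36-fold, 95% interval 0.28 to 2.20, adjusted p = 0.120). S100a9 stood at 7.64, 7.37 and 8.19 without MMS and at 9.14, 11.08 and 8.86 with it. Here the gap was 0.66, and animal 2 was again the highest. The difference was 1.96 ± 0.57 (3.89-fold, 95% interval 0.71 to 3.21, adjusted p = 0.0831). Among all probe sets 12.9% had every treated knock-out array above every untreated one, against 11.3% in wild-type liver.

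Treated knock-out animal 2 carried much of these differences. Over the untreated knock-out mean it was 4.74-fold higher for S100a8 and 10.2-fold higher for S100a9, while animals 1 and 3 were 1.52-fold and 1.81-fold higher for S100a8 and 2.65-fold and 2.18-fold for S100a9. Without that array the differences were 0.73 ± 0.37 for S100a8 and 1.26 ± 0.45 for S100a9 (adjusted p = 0.313 and 0.198). Without treated knock-out array 3, the second lowest of the group for S100a8 and the lowest for S100a9, S100a9 was called at 2.38 ± 0.60 (adjusted p = 0.0301) and S100a8 was not, at 1.43 ± 0.49 (0.0790). In that refit 14.4% of all probe sets were called, against 1.51% with all arrays, and without treated knock-out array 2 none was (0 of 22626).

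Averaged over the genotypes, the MMS response again called both calgranulins and none of the other 7 genes (11.3% of all probe sets were called, 4.61% as higher). S100a8 rose by 1.78 ± 0.31 (3.44-fold, adjusted p = 0.00646) and S100a9 by 2.29 ± 0.40 (4.88-fold, adjusted p = 0.00683). Both kept this call without any single array. For the averaged response the adjusted p over all alternatives ran from 0.00181 to 0.0197 for S100a8 and from 0.00101 to 0.0207 for S100a9.

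**Figure D2:**
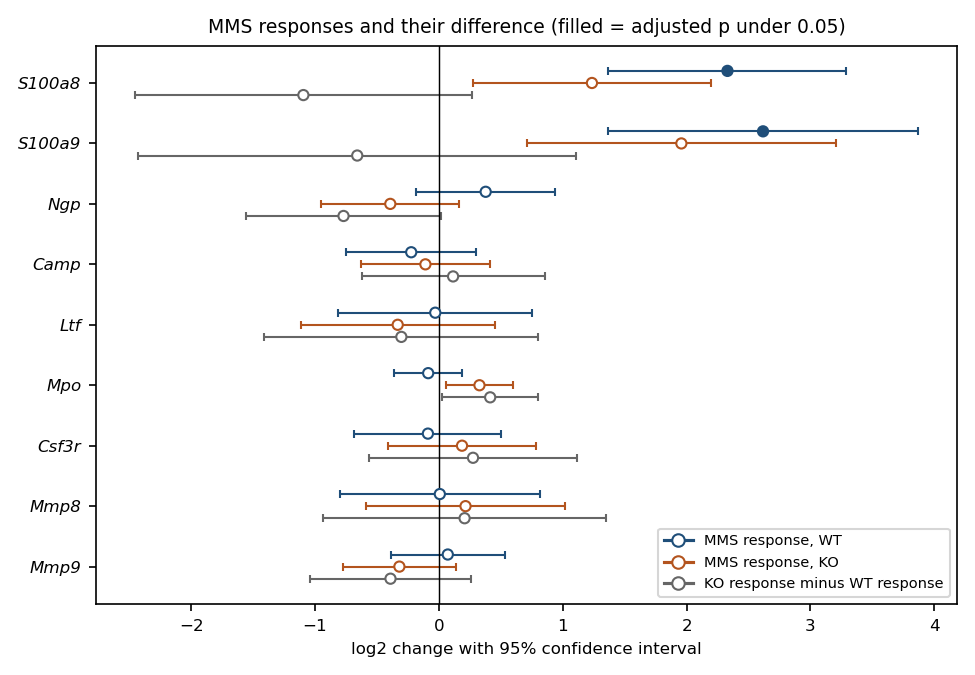
Log2 change with 95% confidence interval of each of the 9 genes for the MMS response in wild-type liver, the MMS response in knock-out liver, and the second minus the first. Filled points passed the limma threshold, which holds only for S100a8 (2.33) and S100a9 (2.62) in wild-type liver.

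Whether the calgranulin response depends on Aag is asked by the difference of the 2 responses. It was -1.09 ± 0.62 for S100a8 (95% interval -2.45 to 0.26, adjusted p = 0.375) and -0.66 ± 0.80 for S100a9 (95% interval -2.43 to 1.11, adjusted p = 0.700). Both intervals include a smaller and a larger response in the knock-out. Without treated knock-out array 2 the differences were -1.60 ± 0.49 for S100a8 and -1.35 ± 0.61 for S100a9 (adjusted p = 0.225 and 0.341). No probe set at all was called for this difference by limma (0%), although 4009 had an unadjusted p under 0.05, with Mpo the 1 member among them. That count of 0 depended on single arrays and settings: it was 158 without untreated knock-out array 3, 104 without treated knock-out array 3 and 2344 with arrays weighted by their quality. Between treated genotypes S100a8 differed by -0.87 ± 0.44 and S100a9 by -0.44 ± 0.57, knock-out minus wild type (adjusted p = 0.314 and 0.723), with overlapping values for both and for the other 7 genes (17.6% of all probe sets did not overlap). Between untreated genotypes the differences were 0.22 ± 0.44 and 0.22 ± 0.57 (adjusted p = 0.963 and 0.975). None of the 9 genes was called in either genotype comparison by limma, where 0.0177% of probe sets were called with MMS and 0.0398% without, and none had an unadjusted p under 0.05. Without treated knock-out array 3 the treated comparison called 1118 probe sets in place of 4, none of them for the 9 genes. The comparisons share groups of arrays, so these values are not independent of one another.

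S100a8 and S100a9 kept nearly the same order across animals. Within the 6 treated arrays Pearson's r was 0.923 (exact permutation p = 0.00833, 0.00833 adjusted over the 2 sets of arrays) and Spearman's rho 0.943 (exact permutation p = 0.0167, 0.0167 adjusted). Within the 6 untreated arrays r was 0.982 (exact permutation p = 0.00278, 0.00556 adjusted) and rho 0.943 (exact permutation p = 0.0167, 0.0167 adjusted). Without the 2 arrays farthest from the median of S100a8, r was 0.905 and 0.923 over 4 arrays each. Each set pools both genotypes, and the permutations did not hold genotype fixed. A genotype difference shared by both genes can therefore enter these values. Untreated knock-out animal 3 was the highest untreated animal for both genes, at 8.60 and 8.19. The probe set of S100a8 carries the suffix _s_at, which Affymetrix gives to probe sets whose probes can match more than 1 transcript.

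**Figure D3:**
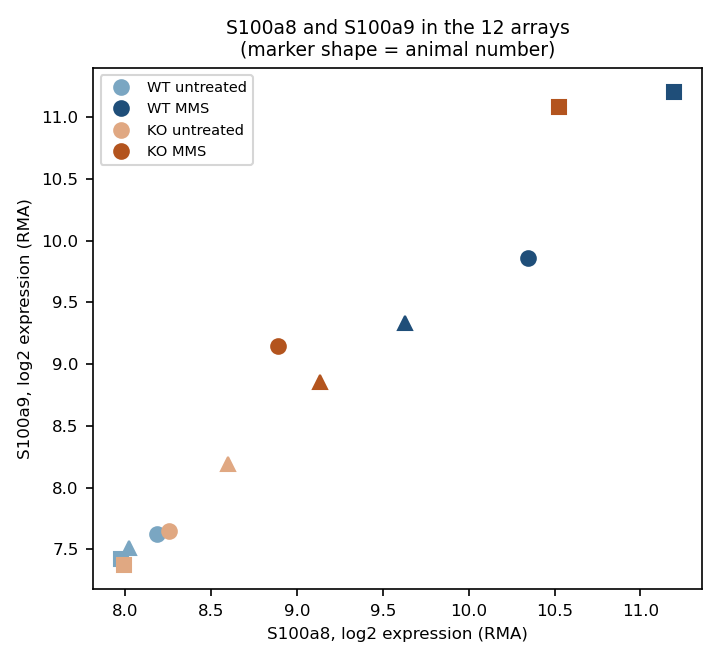
Log2 expression (RMA) of S100a9 against that of S100a8, 1 point per array, with the colour giving the group and the shape the animal number. The 6 untreated arrays sit at or below 8.60 on the S100a8 axis, and animal 2 of each treated group is at the top right.

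The other 7 genes, most of them for granule proteins, were called in neither genotype, with changes between -0.22 and 0.38 in wild-type and between -0.39 and 0.33 in knock-out liver. The 95% intervals of all 7 lay below 0.94 in wild-type liver, so 1.91-fold is the largest increase inside any of these intervals. In knock-out liver the upper limit was 1.02, or 2.03-fold. These probe sets were dim: by mean level 6 of the 7 lay between the 2.41st and the 20.5th percentile of all probe sets and Mmp9 at the 35.6th, and their values ran from 3.41 to 6.80. With no detection call, a transcript at this level cannot be told from background, and fold changes of dim probe sets are compressed by background signal.

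Ngp, a protein of the secondary granules, stood at 4.81, 4.75 and 4.13 in untreated and 5.05, 5.27 and 4.51 in treated wild-type arrays. In knock-out liver it stood at 5.19, 5.10 and 4.87 without and 4.73, 4.99 and 4.26 with MMS. The treated and untreated arrays overlapped in both genotypes, with a change of 0.38 ± 0.25 in wild-type and -0.39 ± 0.25 in knock-out liver (adjusted p = 0.404 and 0.360). The 3 untreated knock-out arrays lay above the 3 untreated wild-type ones, a difference of 0.49 ± 0.25 that was not called (adjusted p = 0.743; 7.52% of all probe sets had such a pattern in this direction). Camp, the precursor of the antimicrobial peptide cathelicidin, stood at 5.56, 5.34 and 5.47 in untreated and 5.38, 5.03 and 5.29 in treated wild-type arrays. It stood at 5.11, 5.35 and 5.97 in untreated and 4.94, 5.49 and 5.68 in treated knock-out arrays. Its changes were -0.22 ± 0.24 and -0.11 ± 0.24 (adjusted p = 0.612 and 0.799). Ltf, the iron-binding lactoferrin, ranged from 4.43 to 5.37 in untreated and from 4.33 to 5.46 in treated wild-type arrays, so both groups covered nearly the same interval. In the knock-out it ranged from 4.90 to 5.55 and from 4.24 to 5.28.

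Mpo is the peroxidase of the primary granules. It stood at 3.63, 3.70 and 3.63 in untreated and 3.48, 3.73 and 3.49 in treated wild-type arrays. In knock-out liver it stood at 3.41, 3.43 and 3.51 without and 3.91, 3.57 and 3.86 with MMS. The knock-out groups did not overlap, with a gap of 0.05 and a difference of 0.33 ± 0.12, at adjusted p = 0.140, that missed the threshold (95% interval 0.05 to 0.60). In untreated liver the knock-out arrays lay below the wild-type ones (difference -0.20 ± 0.12, adjusted p = 0.800; 10.8% of all probe sets had this pattern). The difference between the genotypes' responses was 0.41 ± 0.18 (adjusted p = 0.256).

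Csf3r, the receptor for the growth factor G-CSF that drives neutrophil production, had changes of -0.09 ± 0.27 in wild-type and 0.19 ± 0.27 in knock-out liver. It stood at 4.73, 6.05 and 5.59 in treated knock-out arrays, and animal 2 was again the highest of the group. The collagenase Mmp8 was at 4.60, 5.38 and 6.09 in untreated knock-out arrays, the widest spread of any of the 7 genes, and its changes were 0.01 ± 0.37 and 0.21 ± 0.37. The gelatinase Mmp9, also made by macrophages, changed by 0.07 ± 0.21 and -0.32 ± 0.21 at its brighter probe set and by 0.21 ± 0.30 and -0.12 ± 0.30 at the other. Its 2 probe sets followed each other only weakly over the 12 arrays (r = 0.285, a description). Adjusted p was 0.364 or more for all of these values.

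Between animals of the same group the 7 genes did not vary as 1 set. Of the 21 pairs among them, 8 had a negative correlation of deviations from the group means, 6 of them with Mpo, and r ran from -0.61 (Mpo with Csf3r) to 0.91 (Camp with Mmp8), with a median of 0.362. The pair of calgranulins stood at 0.972 on the same scale. The 14 pairs of a calgranulin with 1 of the other 7 ran from -0.18 to 0.65, the highest for S100a8 with Mmp9. These are descriptions over 12 arrays. The probe sets also share the signal level of each array. Treated knock-out array 1 had the lowest lower quartile of all probe sets, 5.31 against 5.54 to 5.86 in the other 11, and 4 of the 7 genes (Camp, Ltf, Csf3r and Mmp9) were lowest in that array, whereas Mpo was highest there. The part of this in the correlations was not tested.

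**Figure D4:**
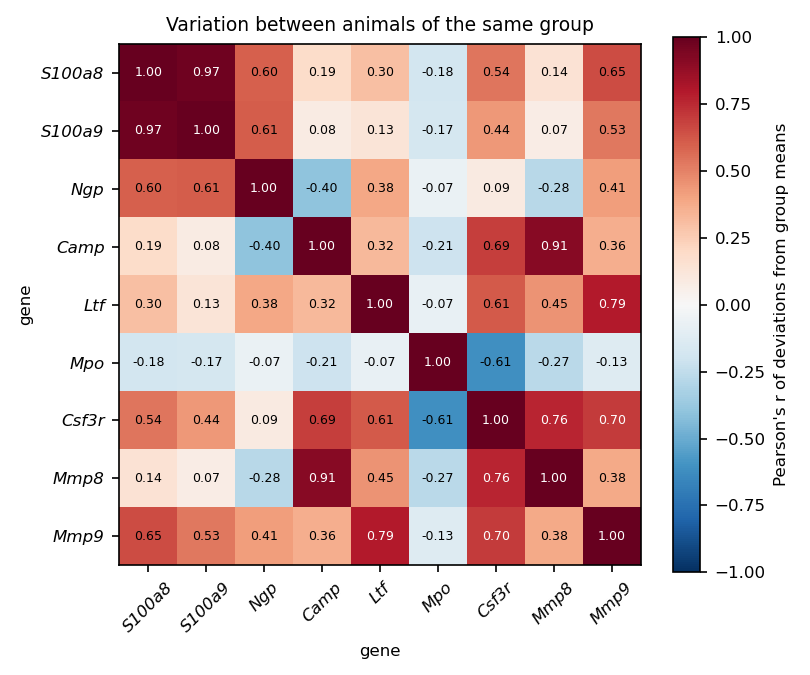
Pearson's r between the 9 genes over 12 arrays after each value had its group mean taken away, so that only differences between animals of a group count. S100a8 and S100a9 share the highest value (0.97), next to Camp with Mmp8 (0.91).

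Of 38 listed further neutrophil granule, receptor and oxidase genes 28 were measured, and Ly6g and Retnlg were among those not measured. Of the 28, 1 rose in wild-type and none in knock-out liver. In the averaged response 3 rose, and none fell in any of these comparisons. At an unadjusted p under 0.05 there were 10 in wild-type liver, in both directions, and 3 in knock-out liver, against 5245 and 5610 of all 22626 probe sets. Over all probe sets 1.99% were called higher in wild-type liver, 0.747% in knock-out liver and 4.61% in the averaged response, where a further 6.66% were lower. The median changes of the list were 0.07, 0.10 and 0.04. The gene in wild-type liver was Lcn2, a siderophore-binding protein of secondary granules that hepatocytes also make in inflammation and that stands on the acute phase list too (1.89 ± 0.49, adjusted p = 0.0472). Lcn2 stood at 11.76, 10.18 and 10.25 in untreated and 12.90, 12.71 and 12.26 in treated wild-type arrays. In knock-out liver it stood at 9.27, 9.74 and 9.05 without and 9.23, 10.93 and 9.33 with MMS, a difference of 0.48 ± 0.49. Knock-out minus wild type, Lcn2 differed by -1.38 ± 0.49 without and -2.79 ± 0.49 with MMS, neither called (limma adjusted p = 0.565 and 0.0793). Animal 2 of the treated knock-outs again stood highest. In the averaged response Clec4d, a lectin receptor of neutrophils and monocytes, rose by 0.92 ± 0.23 (adjusted p = 0.0296). Chil3, a chitinase-like protein, rose by 0.88 ± 0.22 and Il1r2, the decoy receptor for interleukin 1, by 0.49 ± 0.13. In that response Elane, the granule elastase, was not called at 0.12 ± 0.14 nor Cxcr2, the receptor for the chemokine Cxcl1, at 0.04 ± 0.27. These 4 probe sets were dim over the 12 arrays: Chil3 at 3.92 to 5.98, Il1r2 at 4.90 to 5.99, Elane at 4.67 to 5.65 and Cxcr2 at 4.19 to 5.91. With no detection call, signal at this level cannot be told from background. The serine protease gene Prtn3 was not called either, at 0.50 ± 0.33, with 7.87, 7.52 and 6.85 in treated wild-type and 5.76, 7.69 and 5.73 in treated knock-out arrays. Of the 28 genes 17 had a positive and 11 a negative averaged change. The negative ones, none of them called, included the receptor genes Cxcr4 (-0.95 ± 0.34, limma adjusted p = 0.0992) and Fpr2 (-0.56 ± 0.20, 0.103).

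A list of recruitment signals, not all of them particular to neutrophils, had 3 of 25 measured genes called in wild-type liver, all higher. None was called in knock-out liver, where 6 had an unadjusted p under 0.05. The shares of all probe sets called were 6.44% (1.99% higher) and 1.51%, and 5610 of 22626 had an unadjusted p under 0.05 in knock-out liver. Cxcl1, which attracts neutrophils, stood at 8.01, 7.21 and 7.32 in untreated and 11.60, 11.96 and 10.86 in treated wild-type arrays (3.96 ± 0.86, 15.6-fold, adjusted p = 0.0242). In treated knock-out arrays it stood at 8.19, 12.22 and 8.68, against 9.68, 8.57 and 8.08 in untreated ones. Only animal 2 was above the untreated range there, and the difference was 0.92 ± 0.86 (adjusted p = 0.526). That animal was the highest treated knock-out for the calgranulins too, but also for several lists of markers of other cell types, given below. Icam1, the adhesion molecule that neutrophils bind on vessel walls, rose by 1.45 ± 0.15 in wild-type liver (adjusted p = 0.00195) and stood at 0.62 ± 0.15 in the knock-out (0.0566). Csf1, a macrophage growth factor, rose by 0.72 ± 0.14 in wild-type liver. In the averaged response Cxcl1, Csf1 and Icam1 were higher and Selp, an adhesion molecule of endothelium and platelets, fell by 0.40 ± 0.11. Over all probe sets 4.61% were called higher and 6.66% lower in that response. The chemokine Cxcl2 stood at -0.82 ± 0.37 in wild-type liver and the G-CSF gene Csf3 at 0.67 ± 0.45, neither called. The genotype difference of the response was -3.04 ± 1.22 for Cxcl1 and -0.83 ± 0.21 for Icam1 (adjusted p = 0.237 and 0.131).

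**Figure D5:**
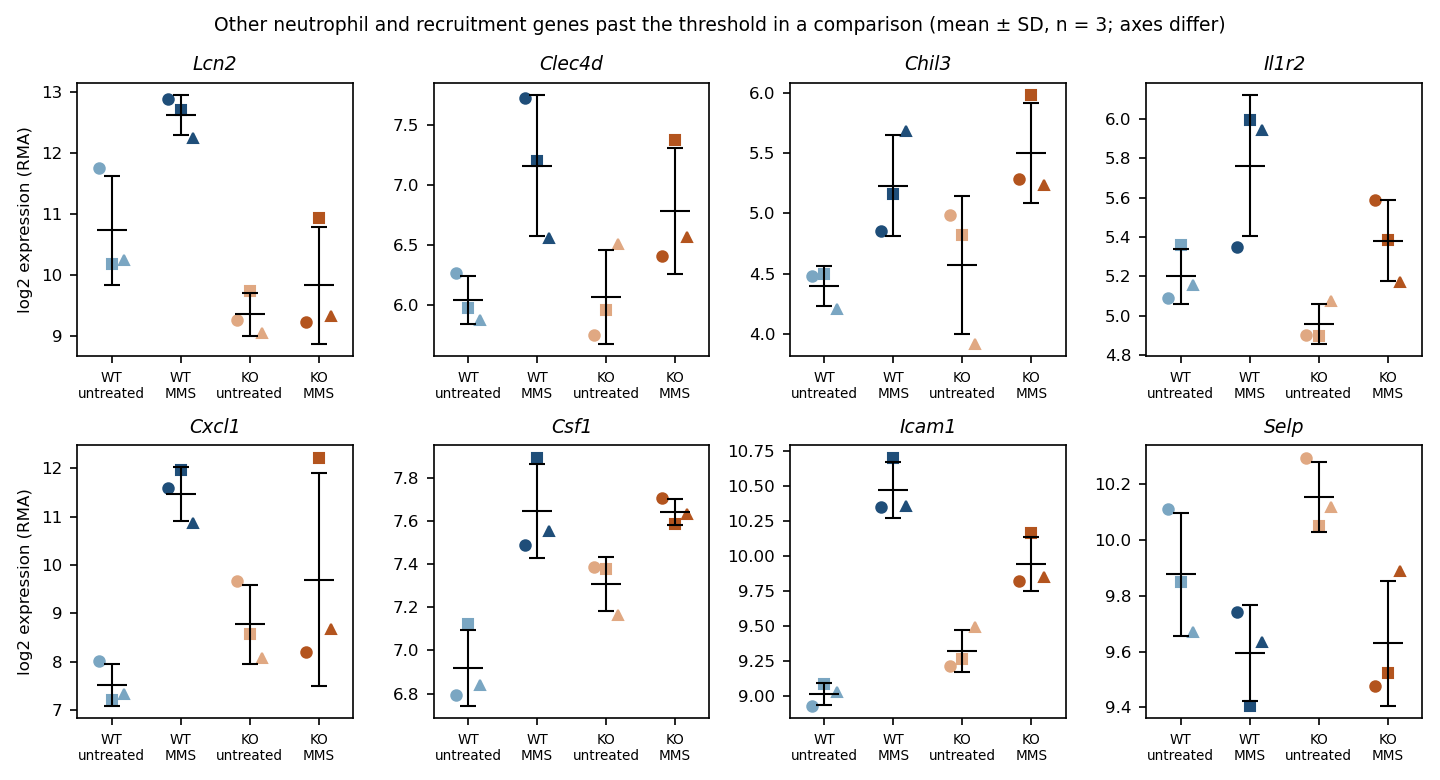
Log2 expression (RMA) by array of the 8 further neutrophil and recruitment genes that passed the threshold in at least 1 comparison, with mean ± SD (n = 3) and a separate axis for each gene. Cxcl1 lies between 10.86 and 11.96 in treated wild-type arrays, while only animal 2 (12.22) is in that range or above it among treated knock-outs.

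Among proteins that work with the members, other S100 genes and calgranulin receptors were not called in either genotype (0 of 19 by limma). Over all probe sets 6.44% and 1.51% were. An unadjusted p under 0.05 was found for 6 and 8 of the 19, against 5245 and 5610 of all 22626 probe sets. S100g stood at 5.38, 6.78 and 4.92 in untreated and 8.63, 12.46 and 7.73 in treated knock-out arrays. Its change was 3.91 ± 0.98 there (limma adjusted p = 0.0637) and -1.35 ± 0.98 in wild-type liver, neither called. In the averaged response 1 of the 19 fell, where 6.66% of all probe sets did: S100pbp, which encodes an S100P-binding protein (-0.44 ± 0.10). Tlr4, the receptor for calprotectin, stood at -0.42 ± 0.16 in that response (adjusted p = 0.126). Of 21 other matrix metalloproteinases and their inhibitors 2 fell in wild-type liver, where 4.45% of all probe sets did: Mmp2, the gelatinase of mesenchymal cells (-1.69 ± 0.25, adjusted p = 0.00626), and Reck, a membrane-bound inhibitor of these enzymes (-0.82 ± 0.17). None of the 21 was called in knock-out liver, where 3 had an unadjusted p under 0.05, against 5610 of all 22626 probe sets. Averaged over genotypes Mmp2 and Reck fell and Mmp24, a membrane-type enzyme, rose (0.43 ± 0.09), where 6.66% of all probe sets were called lower and 4.61% higher. Timp1, the inhibitor of Mmp9, stood at 0.75 ± 0.23 in wild-type and -0.34 ± 0.23 in knock-out liver, neither called.

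Markers of other blood and liver cell types were called in wild-type liver too. Over all probe sets 4.45% were called lower and 1.99% higher in that comparison, so more lower than higher calls were found on the array as a whole. In knock-out liver 1.51% were called, and in the averaged response 4.61% were called higher. An unadjusted p under 0.05 was found for 5245 of all 22626 probe sets in wild-type and 5610 in knock-out liver. Macrophage markers had a mean log2 level of 9.70 to 10.23 in untreated and 9.53 to 9.97 in treated wild-type arrays. Of 17 measured, 2 fell there (Adgre1, which encodes F4/80, and Mrc1, a mannose receptor) and the scavenger receptor Marco rose (1.29 ± 0.34). Monocyte markers, which share calgranulin expression with neutrophils, were at 7.01 to 7.10 and at 6.79 to 6.96, with 0 of 11 called by limma in wild-type or knock-out liver (3 and 2 at an unadjusted p under 0.05) and Chil3 higher in the averaged response. Erythroid genes, a sign of blood in the tissue, were at 8.03 to 8.21 in untreated and 7.77 to 7.93 in treated wild-type arrays, with the globin gene Hba-a1 higher and Hbb-b2, Car1 and Car2 lower among 15. The Hba-a1 probe set was dim, at 5.33 to 6.48 over the 12 arrays, and Hba-a2 was not called at -0.48 ± 0.22. In the knock-out the erythroid genes were at 7.94 to 8.17 and 7.91 to 8.07, with 0 called by limma and 3 at an unadjusted p under 0.05. Of 17 lymphocyte markers 2 fell in wild-type liver, Cd3e of T cells (-1.08 ± 0.28) and Cd79b of B cells (-1.36 ± 0.21). Of 18 endothelial markers 6 fell there, among them Cdh5 (-1.06 ± 0.23), and Oit3 fell in both genotypes (-0.69 ± 0.14 and -0.78 ± 0.14). Of 9 platelet genes 1 fell, Pf4 (-0.68 ± 0.16). For genes of marrow progenitors and of hepatocytes, 0 of 17 and 0 of 14 were called by limma there (7 and 1 at an unadjusted p under 0.05). The acute phase list holds plasma proteins that hepatocytes mainly supply, and also genes that do not encode plasma proteins, such as Socs3, Stat3, Mt1 and Mt2. Of its genes 12 of 27 rose in wild-type liver and 1 of 27 in knock-out liver, with none lower. Over all probe sets 1.99% and 0.747% were called higher. Examples in wild-type liver are Saa2, a serum amyloid (2.41 ± 0.53), Orm2, an orosomucoid (2.80 ± 0.63), and Socs3, an inhibitor of cytokine signalling (3.07 ± 0.70). The gene called in both genotypes was Mt2 (4.23 ± 0.62 and 2.97 ± 0.62). The mean level of the acute phase list was 11.73 to 12.06 in untreated and 12.74 to 12.86 in treated wild-type arrays. Among treated knock-outs it was highest in animal 2 (12.71 against 12.14 and 11.94). This was not particular to inflammation. Animal 2 was also highest of the treated knock-outs for the macrophage list (10.44 against 9.98 and 10.04). The same held for the endothelial (9.04 against 8.85 and 8.82) and hepatocyte lists (13.88 against 13.82 and 13.80). The erythroid, progenitor and metalloproteinase lists were highest in animal 3. The part of any of these in the calgranulin values was not tested.

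The genes whose pattern over the 12 arrays was most like that of S100a8, among 5996 candidate genes, were Icam1 (r = 0.946), the tumour necrosis factor receptor Tnfrsf1a (0.934), the metallothionein Mt2 (0.917), Myd88, the adaptor of Toll-like receptors (0.917), and Marco (0.908). For S100a9 they were Tnfrsf1a (0.938), Mt2 (0.929), Hmox1, which degrades heme (0.922), Icam1 (0.922) and Cbr3, a carbonyl reductase (0.911). These are descriptions over 12 arrays that share the treatment, and how much of each value comes from the treatment was not tested.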

How the data were processed

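The 12 arrays each hold 1 mouse liver. Per the submitters' processing notes, the authors made the deposited log2 values with RMA, which corrects background, normalizes arrays and summarises probes. The log base was inferred from their range. Of 22690 probe sets 64 controls were set aside. Symbols came from the platform's annotation (20380 with 1 symbol, 691 with several, 1555 with none; 20351 symbols updated through gene identifiers in a RefSeq table). A gene was read from its probe set with the highest mean. Comparisons were contrasts of the 4 group means in limma 3.58.1 (R 4.3.3; 8 residual degrees of freedom) with Benjamini-Hochberg adjustment over 22626 probe sets at 0.05, and were tested on simulated data. The 2 correlations used exact permutation tests, two-sided. The 9 genes, the gene lists and the motifs were chosen with earlier results of these data known. Named genes are the 9, the 5 most like each by Pearson's r among genes with above-median SD, and list members past the threshold or with the smallest p; others named as context were chosen after their values were seen. Replicates are separate animals by their titles. No batch or scan date was given. Other settings were 2 scalings, 2 filters on low values, other variance models, weights for arrays, a block for animal number, the compared groups alone, other choices of probe set, and leaving out each array. A pseudocount does not apply to log2 values.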

Additional observations from a re-analysis of the deposited data

Results flagged for a closer look

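Mpo was lower in all 3 untreated knock-out arrays than the untreated wild-type mean (by -0.20 on average, log2) and its mean was higher in treated knock-out than in treated wild-type arrays (by 0.21). The treated groups overlapped: treated knock-out array 2 stood at 3.57, level with the treated wild-type mean of 3.57, and treated wild-type array 2 stood at 3.73. The difference of these effects is the genotype difference of the MMS response, 0.41 ± 0.18, which limma did not call (adjusted p = 0.256). Mpo lay at the 2.41st percentile of all probe sets by mean level. Groups of 3 arrays are too small for the test of single outlying arrays, so none was made.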

How the results depend on the processing

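In wild-type liver S100a8 and S100a9 were both called under both scalings, both filters, the other variance model, weighted arrays, the compared groups alone, and both other choices of probe set. The number of the 9 genes called was 0 to 2 when single arrays were left out. In knock-out liver it was 1 without probe sets below the median level (S100a9, adjusted p = 0.041), 3 with array weights (S100a8, S100a9 and Mpo), and 1 without both knock-out arrays numbered 3, a setting chosen after the data were seen (S100a9 at 2.61 ± 0.66, adjusted p = 0.034). Those settings called 14.8%, 25.6% and 14.7% of all probe sets tested, against 1.51%. With single arrays left out it was 0 to 1. The difference of the responses had 1 call with array weights (Mpo, 0.50 ± 0.14, adjusted p = 0.0465), a setting that called 10.4% of all probe sets. The averaged response called 2 genes in each alternative run, and the genotype comparisons called 0. In these refits the sign of no called value changed. Over 42 results of the other 7 genes and 874 refits, 2 refits gave a call and 66 changed the sign of an uncalled value. The filters left out 6 and 7 of these genes. The animal number as a replicate block changed no call of the 9 genes (S100a8 2.33 ± 0.42, adjusted p = 0.0208, in wild-type liver). It moved the count over all probe sets from 341 to 19 in knock-out liver. Same-numbered arrays deviated together (r over 0.1) in 7 of 18 pairs, so a pairing was not established. Counts over all probe sets moved with the settings, from 1458 in wild-type liver to between 274 and 4873, from 341 in knock-out liver to between 0 and 5790, from 4 between treated genotypes to between 3 and 1482, from 9 between untreated genotypes to between 3 and 182, from 0 for the difference of the responses to between 0 and 2344, and from 2551 in the averaged response to between 1233 and 7459. Low signal, with no detection call to tell it from background, limits the 7 genes other than the calgranulins.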

Other observations

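The genes most like the dim granule genes over the 12 arrays differed from those of the calgranulins. For Ngp they were Il12rb2, Pou3f1, Gfra3, Dkkl1 and Dipk1b (r from 0.906 to 0.946). For Camp they were Stk31, Bst1, Ak5, Mmp3 and Samsn1 (0.954 to 0.978), and for Ltf they were Gm6211, Plcb4, Pcp4, Tg and Wnt9b (0.907 to 0.929). Csf3r was most like Krt20 (0.953), a keratin, and Reg3g (0.908), an antimicrobial lectin of the gut. Mmp8 was most like Olfr154 (0.889), an olfactory receptor, and Csn1s2a (0.885), a casein of milk, and Mmp9 like Sct (0.915), the hormone secretin. For Mpo the highest value was 0.843 (Lrrc51). These are descriptions over 12 arrays, picked as the highest of 5996 genes.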
